A study of Mus musculus with 9 samples.

Results

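Whole mouse intestines treated with cyclopamine, from wild type C57BL/6 embryos at E14.5, were compared with untreated mesenchyme of the same stage and strain, and the differences were read among genes that belong to the mesenchyme. Cyclopamine is a plant alkaloid that binds Smoothened and so blocks the hedgehog pathway. The comparison set 3 libraries of cyclopamine-treated whole intestine (called treated intestine here) against 3 libraries of separated mesenchyme labelled with no agent, which makes 6 of the 9 libraries of the series. Both groups carry the same wild type genotype and strain. The other 3 libraries, separated untreated epithelium, served to choose the genes. A gene counted as mesenchyme-enriched when its mean normalised count (CPM, a count scaled to the library total) in mesenchyme was at least 8-fold its mean in epithelium, and 3987 of 24013 genes met that rule. Of these, 2385 had enough counts in the 6 libraries to be tested, and 1602 did not.

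Whole intestines stayed 24 h in transwell culture with or without the drug, per the series' design text. The sources used here do not state whether the separated layers were cultured too, how they were separated, the dose of cyclopamine or whether a library is 1 embryo or a pool. Untreated whole intestine was not analysed here. Drug, tissue content and any difference in culture therefore cannot be told apart in this comparison. No label says whether the libraries of a group are separate animals, so p-values cover only the spread between libraries. Each group held libraries of both sexes by Xist and Y-linked counts, so its libraries did not all come from 1 embryo. Libraries of the same sex within a group may still differ only technically.

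In the embryonic gut the epithelium secretes the hedgehog ligands Shh and Ihh, and the mesenchyme around it responds. Ligand binding to Patched receptors releases Smoothened, which turns Gli transcription factors into activators. Gli1, Ptch1 and Hhip are direct targets in most responding tissues, so their transcripts are used as a reading of pathway activity. In gut mesenchyme the pathway is known to act on forkhead factors, on Bmp4 and on the growth of the smooth muscle coat.

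Depth was 14122486 to 18045771 counts in the treated libraries and 3284702 to 26302836 in the mesenchyme libraries, after removal of Rn45s (the ribosomal RNA precursor), Lars2 and Mir6236. The lowest value was that of mesenchyme library 1, where those 3 features held 6454692 counts. Both groups held libraries of both sexes by Xist and Y-linked counts. The tissue labels were read from a list of 25 epithelial markers: their summed CPM stood at 39.7%, 42.9% and 34.2% of the epithelium mean in treated libraries 1 to 3, and at 3.77%, 3.44% and 2.96% in mesenchyme libraries 1 to 3. All 24 epithelial markers tested were higher in treated intestine. Each treated library thus held transcripts of both layers, as its label says.

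The genes that carry the comparison include direct hedgehog targets and forkhead genes. The RefSeq promoter set used held no stretch for Gli1, Foxl1 or Foxf1. The 250 bases before the start of 3 other genes, each lower in treated intestine, are shown here. The stretches are from RefSeq on build GRCm38.p6, read on the strand of the gene, 5′ to 3′, with CpG dinucleotides in capitals. They lie at chr8:80058009-80058258 (minus strand, Hhip), chr13:63565736-63565985 (minus strand, Ptch1) and chr13:31625566-31625815 (plus strand, Foxf2).
Hhip: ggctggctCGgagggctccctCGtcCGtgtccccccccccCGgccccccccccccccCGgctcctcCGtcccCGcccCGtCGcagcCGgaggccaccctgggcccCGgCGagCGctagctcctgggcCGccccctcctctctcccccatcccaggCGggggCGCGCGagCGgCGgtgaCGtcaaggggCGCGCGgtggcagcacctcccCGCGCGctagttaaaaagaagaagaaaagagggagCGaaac
Ptch1: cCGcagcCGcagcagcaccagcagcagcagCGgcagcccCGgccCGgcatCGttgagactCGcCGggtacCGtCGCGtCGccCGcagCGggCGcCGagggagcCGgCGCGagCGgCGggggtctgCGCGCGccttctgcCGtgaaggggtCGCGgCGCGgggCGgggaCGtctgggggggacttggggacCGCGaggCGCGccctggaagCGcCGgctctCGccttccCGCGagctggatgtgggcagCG
Foxf2: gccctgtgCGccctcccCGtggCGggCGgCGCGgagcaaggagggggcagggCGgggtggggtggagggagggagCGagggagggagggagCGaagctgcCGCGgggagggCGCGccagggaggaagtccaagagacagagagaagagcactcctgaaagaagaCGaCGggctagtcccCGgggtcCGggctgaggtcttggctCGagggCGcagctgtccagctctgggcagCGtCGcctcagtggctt
The stretch of Hhip holds 28 CpG dinucleotides, that of Ptch1 41 and that of Foxf2 21, beside 11 for Bmp4, whose stretch is not printed, where the median of all 32851 RefSeq promoter stretches of 250 bases is 6. The Gli consensus GACCACCCA (on the other strand TGGGTGGTC) is in none of the 4 and in 74, or 0.225%, of all such stretches. That says only that these letters are not in these windows.

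Mesenchyme-enriched genes were mostly lower in treated intestine. Of the 2385 tested, 1003 (42.1%) were lower and 63 (2.64%) were higher (edgeR's quasi-likelihood F test, with p adjusted by Benjamini and Hochberg over all genes and a threshold of 0.05), and 1319 did not pass. Over all 15372 genes tested, 19.1% were lower and 20.1% higher. Counts of enriched list members given below are to be read beside the 42.1% lower and 2.64% higher of all enriched genes. Without treated library 1, 2 or 3, all-gene counts of 2934 lower and 3083 higher became 1603 to 1807 lower and 1883 to 2135 higher, and that of higher enriched genes 22 to 29. The median log2 difference, treated minus mesenchyme, was -0.65 over the enriched genes (middle 50% from -1.19 to -0.14) and 0.01 over all genes tested. A negative log2 difference was seen for 1925 enriched genes (80.7%). The fall exceeded 2-fold for 664 of the 1003 lower genes and 8-fold for 57, while 26 of the 63 higher genes differed by more than 2-fold. The groups' values were fully separate, with no overlap, for 55.6% of enriched genes and 56.2% of all genes. The mesenchyme libraries also entered the choice of genes; with genes chosen from 1 mesenchyme library and tested against the other 2, the median was -0.65 to -0.54 and 782 to 1064 were lower. In bulk tissue, fewer cells of a type and less RNA per cell cannot be told apart.

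The shift was seen in every treated library. Set against the mesenchyme mean, the median enriched gene stood at -0.57 in treated library 1, -0.69 in treated library 2 and -0.51 in treated library 3 on the log2 scale. Epithelial transcripts took up part of each treated library, as given above, and how much of the shift goes with them was not tested. To read genes against their own layer, the fit was repeated with libraries scaled over the mesenchyme-enriched genes alone, which moves every log2 difference up by about 0.68. On that scale 423 enriched genes (17.7%) were lower and 399 (16.7%) higher, against 4.53% lower and 52.7% higher over all genes, and the enriched median was 0.03. All 423 genes lower on that scale were also lower with all-gene scaling, and all 63 genes higher with all-gene scaling were also higher on it. A gene called lower on both scales thus fell by more than the typical gene of the layer. A fit of all 9 libraries ended the calls of 16 genes described below (Abcc9, Boc, Des, Gas1, Gdf6, Lama4, Lrrn3, Pdgfra, Rspo3, Sema3d, Sox10, Synpo2, Tbx2, Wnt5a, Zeb1 and Zeb2), with edgeR adjusted p from 0.051 to 0.25 and the same directions.

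**Figure D1:**
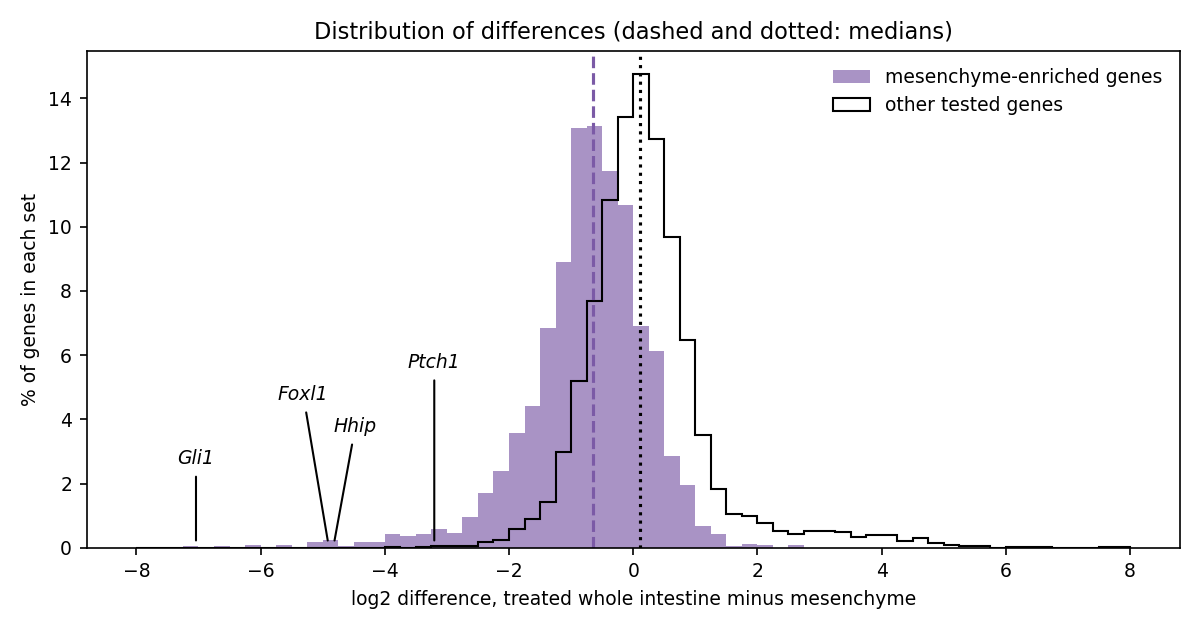
Distribution of log2 differences (treated whole intestine minus mesenchyme, x axis) as a percentage of genes in each set (y axis), for 2385 mesenchyme-enriched genes (filled) and the other tested genes (outline). The dashed line marks the median of the enriched genes, -0.65, the dotted line that of the other genes, and Gli1, Hhip, Foxl1 and Ptch1 lie in the far lower tail.

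Several genes next to the 8-fold limit show what the choice of genes holds. Just inside it were Sec14l1, Slc35f1 and Tlr3, with log2 differences of -1.50, -0.75 and -0.54. Just outside it were Pygl, Upp1 and 9630001P10Rik, with 0.24, -1.24 and -0.25.

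Hedgehog target genes were far lower in treated intestine. Gli1, the transcription factor that is itself induced by the pathway, had 3.09, 1.32 and 1.30 CPM in treated intestine, against 277, 248 and 228 CPM in mesenchyme (log2 -7.04, SE 0.35, edgeR adjusted p = 4.79e-05). The treated values lay far below all mesenchyme values, and this was the largest fall among the enriched genes that the naming rule takes. Hhip, a membrane protein that binds and sequesters hedgehog ligand, had 4.60, 4.32 and 4.75 CPM in treated intestine, against 144, 88.8 and 155 CPM in mesenchyme (log2 -4.82, SE 0.26, edgeR adjusted p = 4.95e-05). Ptch1, the main receptor and inhibitor of Smoothened, had 63.5, 39.6 and 73.3 CPM in treated intestine, against 792, 269.8 and 568 CPM in mesenchyme (log2 -3.20, SE 0.42, edgeR adjusted p = 0.00109). Its mesenchyme libraries were spread widely, yet the lowest of them was above the highest treated library. Foxl1, a forkhead factor of the mesenchymal cells that lie directly under the epithelium, had 1.95, 1.74 and 1.94 CPM in treated intestine, against 52.0, 47.9 and 69.7 CPM in mesenchyme (log2 -4.91, SE 0.22, edgeR adjusted p = 4.16e-05). All 4 genes were lower in each alternative fit and without any one library. Against the other enriched genes, their log2 differences were -6.35, -4.12, -2.48 and -4.22, all called.

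**Figure D2:**
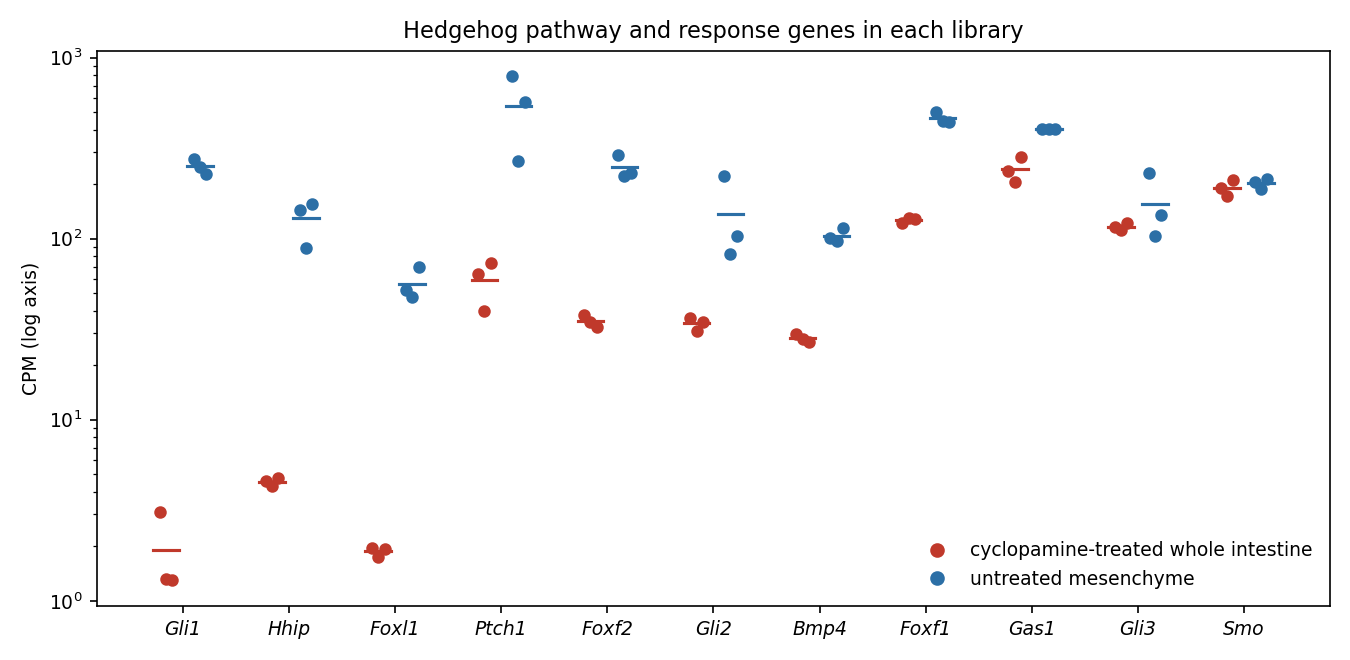
CPM on a log axis for 11 hedgehog pathway and response genes, 1 point per library, with cyclopamine-treated whole intestine left of untreated mesenchyme and bars at the means of 3 libraries. Gli1, Hhip, Foxl1 and Ptch1 show wide gaps between the groups, whereas the values of Gli3 and Smo overlap.

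Levels of these targets in treated intestine overlapped the range of separated epithelium, apart from Gli1, which was mostly below it. On plain CPM over the library total, Gli1 had 3.18, 1.34 and 1.33 in treated intestine and 14.3, 5.41 and 2.56 in epithelium. Hhip had 4.74, 4.39 and 4.88 in treated intestine and 8.07, 1.74 and 0.352 in epithelium. Foxl1 had 2.01, 1.77 and 2.00 in treated intestine and 2.12, 2.11 and 0.553 in epithelium. The treated values of Hhip and Foxl1 lay within the range of epithelium, and 2 of the 3 treated values of Gli1 lay below it. Ptch1 had 65.5, 40.3 and 75.2 in treated intestine and 54.5, 46.4 and 47.6 in epithelium, so its treated libraries also overlapped epithelium. The epithelium values were themselves spread, with library 1 the highest in each of these genes. The mesenchyme-enriched collagen gene Col6a1 ran the same way in epithelium (168.5, 57.8 and 21.8). How much mesenchyme the epithelium libraries held was not tested. Only 3 of the 2385 enriched genes (0.126%) had all treated values below all epithelium values, and Ranbp3l was 1 of them.

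Among receptors and transducers of the pathway, the genes that are themselves induced by it differed most. All 17 listed members were tested: 12 were lower, none was higher and the median log2 difference was -0.90. Of the 8 mesenchyme-enriched members, 7 were lower, with a median of -2.59 against -0.65 over all enriched genes, and 5 were lower against the other enriched genes. Gli2, the main activator of the family, had 36.3, 31.0 and 34.9 CPM in treated intestine, against 222, 82.7 and 104 CPM in mesenchyme (log2 -1.98, SE 0.35, edgeR adjusted p = 0.00409), and mesenchyme library 1 was far above the other 2. The coreceptors differed less. Gas1, which presents ligand to Ptch1, had 237, 206 and 282 CPM in treated intestine, against 405, 402 and 405 CPM in mesenchyme (log2 -0.74, SE 0.15), and the coreceptor Boc stood at log2 -1.03 (SE 0.22). Against the other enriched genes these became -0.06 and -0.33, neither of them called. The ciliary protein Evc, which acts with Smoothened, had 32.6, 33.3 and 34.7 CPM in treated intestine, against 96.2, 93.7 and 94.3 CPM in mesenchyme (log2 -1.50, SE 0.13, edgeR adjusted p = 1.76e-04), and its partner Evc2 stood at log2 -0.77 (SE 0.17). Both groups of Evc values were tight. Neither gene is mesenchyme-enriched by the 8-fold rule, and on the scale of the enriched genes Evc stood at -0.81, called lower, and Evc2 at -0.09, not called.

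Of the other pathway components, Smo, Gli3 and Cdon did not pass the test, whereas Sufu, Kif7 and Stk36 were lower. Of these 6 genes only Gli3 is mesenchyme-enriched. Smo, which encodes the direct target of cyclopamine, had 191, 172 and 211 CPM in treated intestine, against 206, 187 and 212 CPM in mesenchyme (log2 -0.08, SE 0.13, edgeR adjusted p = 0.666), and the ranges overlapped. Gli3, the family's main repressor, had 115, 111 and 122 CPM in treated intestine, against 229, 103 and 136 CPM in mesenchyme (log2 -0.42, SE 0.27, edgeR adjusted p = 0.246), with overlapping ranges as well. On the scale of the enriched genes, Smo was higher by 0.61 (called) and Gli3 by 0.31 (not called). That scale moves every log2 difference up by about 0.68, and 52.7% of all genes tested were called higher on it. The coreceptor Cdon did not pass (log2 -0.32, SE 0.24). Sufu, which restrains Gli proteins, stood at log2 -0.96 (SE 0.22), and the kinesin Kif7 at -0.79 (SE 0.17), both lower but not called on the scale of the enriched genes. Stk36, the mouse fused kinase, had the highest p of these calls (log2 -0.90, SE 0.30, edgeR adjusted p = 0.0448) and was not called on that scale either. Without treated library 1, 2 or 3 its edgeR adjusted p was 0.141, 0.0883 and 0.118, and that of Sufu was 0.0504 without treated library 2; with libraries scaled by their totals alone, Stk36 had an edgeR adjusted p of 0.0529.

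The ligand transcripts Shh and Ihh were higher in treated intestine, which holds epithelium, their source. Shh had 169, 155 and 150.5 CPM in treated intestine, against 9.62, 0.404 and 6.98 CPM in mesenchyme (log2 5.02, SE 0.81, edgeR adjusted p = 0.0027), and Ihh had 73.4, 89.8 and 64.3 CPM in treated intestine, against 12.5, 2.02 and 5.17 CPM in mesenchyme (log2 3.82, SE 0.54, edgeR adjusted p = 0.00161). Neither is mesenchyme-enriched. On plain CPM, Shh had 174, 158 and 154 in treated intestine and 66.8, 98.7 and 159.7 in epithelium, with 1 treated value above and 2 just below the highest epithelium value. Ihh had 75.6, 91.3 and 66.0 in treated intestine and 156, 192 and 189 in epithelium, with all treated values below. The summed epithelial markers stood at 34.2% to 42.9% of their epithelium mean, as given above, and their part in these differences was not tested. Of 8 genes for ligands and their release, 6 were tested and 3 were mesenchyme-enriched, of which Scube3, which helps ligand leave the cell, was the only lower one (log2 -1.41, SE 0.33, edgeR adjusted p = 0.0119). Without treated library 2 its edgeR adjusted p was 0.0525, so that the count of lower members was 0.

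Of 22 genes listed as hedgehog responders in gut mesenchyme or other tissues, 21 were tested, 11 were lower and 3 were higher. The 14 mesenchyme-enriched ones held all 11 lower genes and no higher one, with a median log2 difference of -1.88, and 8 were also lower against the other enriched genes. The gene lists overlap, so genes described above can be counted here again. Foxf1 and Foxf2 also enter the count of forkhead factors below. These counts are therefore not separate support for one another. Foxf1 and Foxf2 are forkhead factors that gut mesenchyme needs to form its muscle coat and villi. Foxf1 had 121, 130.1 and 128 CPM in treated intestine, against 503, 448 and 440.4 CPM in mesenchyme (log2 -1.87, SE 0.13, edgeR adjusted p = 8.54e-05). Foxf2 had 37.9, 34.5 and 32.3 CPM in treated intestine, against 291, 223 and 229 CPM in mesenchyme (log2 -2.82, SE 0.16, edgeR adjusted p = 5.67e-05). The values within each group lay close together, and the promoter stretch of Foxf2 is printed above. Among 5 enriched forkhead factors tested, Foxl1, Foxf1 and Foxf2 were lower on both scales. Foxp2 did not pass, with 118, 119 and 123 CPM in treated intestine, against 106, 88.6 and 107 CPM in mesenchyme, and was called higher against the other enriched genes (log2 0.95).

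Further responders fell less. The homeobox factor Nkx2-3, which marks gut and spleen mesenchyme, had 65.5, 66.7 and 63.8 CPM in treated intestine, against 120.0, 159 and 161 CPM in mesenchyme (log2 -1.17, SE 0.15, edgeR adjusted p = 0.00102). Wnt5a stood at log2 -0.97 (SE 0.22), with an edgeR adjusted p of 0.0505 without treated library 3. Tbx2, a T-box repressor named after its values were seen, stood at -0.99 (SE 0.16). None of these 3 was called against the other enriched genes. The 3 higher responders, also named after their values were seen, are not mesenchyme-enriched: the transcription factors Osr2 (log2 2.13, SE 0.40), Prdm1 (1.68, SE 0.24) and Mycn (0.76, SE 0.18). The call of Mycn was lost without treated library 2 (edgeR adjusted p = 0.0575) or 3 (edgeR adjusted p = 0.0573).

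**Figure D3:**
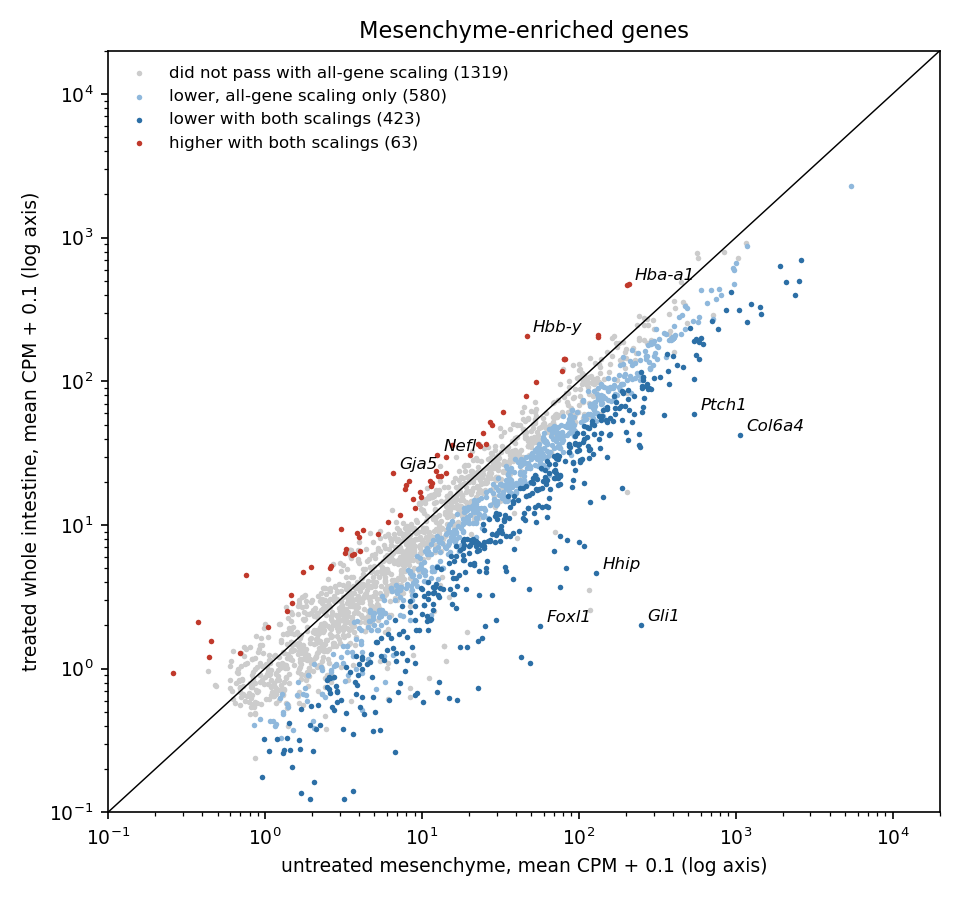
Mean CPM + 0.1 of each mesenchyme-enriched gene in treated whole intestine (y axis) and untreated mesenchyme (x axis), both on log axes, with the line of equal values. Dark points mark the 423 genes lower on both scales, pale blue points those lower with all-gene scaling only, red points the 63 higher genes, and Gli1, Hhip and Foxl1 lie far below the line.

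Besides Gli1, Foxl1 and Hhip, the 15 lowest enriched genes under the naming rule held genes that are not commonly used as hedgehog readings. Kcng1, a modulatory subunit of voltage-gated potassium channels, had 1.13, 1.04 and 1.13 CPM in treated intestine, against 61.0, 33.2 and 35.2 CPM in mesenchyme (log2 -5.25, SE 0.31, edgeR adjusted p = 6.14e-05). Ranbp3l, a Ran-binding protein, had 0.504, 0.488 and 0.918 CPM in treated intestine, against 26.0, 19.0 and 22.8 CPM in mesenchyme (log2 -5.09, SE 0.29, edgeR adjusted p = 5.67e-05). Each had treated values of about 1 CPM or below, while all mesenchyme libraries were far higher. Col6a4, a chain of collagen VI, was lower from a much higher level, with 51.9, 35.5 and 39.7 CPM in treated intestine, against 893, 985 and 1316 CPM in mesenchyme (log2 -4.65, SE 0.24, edgeR adjusted p = 4.95e-05). Procr, the endothelial receptor for protein C, had 3.72, 3.13 and 3.89 CPM in treated intestine, against 53.6, 92.4 and 81.4 CPM in mesenchyme (log2 -4.41, SE 0.25, edgeR adjusted p = 5.67e-05). Sall1, a zinc finger repressor needed for kidney formation, had 3.90, 4.11 and 6.69 CPM in treated intestine, against 118, 69.1 and 63.9 CPM in mesenchyme (log2 -4.07, SE 0.33, edgeR adjusted p = 1.60e-04). The naming rule took only genes whose groups did not overlap, so the gaps in genes named as among the 15 lowest are a description.

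Other genes of the 15 had lower levels. Dnase1l3, a secreted nuclease, had 0.441, 0.557 and 0.594 CPM in treated intestine, against 16.7, 17.8 and 9.86 CPM in mesenchyme (log2 -4.76, SE 0.34, edgeR adjusted p = 1.11e-04). Edar, the receptor for ectodysplasin in skin appendages, stood at log2 -4.36 (SE 0.46), the bile acid receptor Gpbar1 at -4.29 (SE 0.49), the galactosyltransferase B3galt5 at -4.19 (SE 0.42) and the mouse Toll-like receptor Tlr12 at -3.96 (SE 0.31). All of these were also lower against the other enriched genes. Ranbp3l, Dnase1l3, Edar, Gpbar1, B3galt5 and Has1 reached the filter of 0.598 CPM in all 3 libraries of mesenchyme alone, so a low treated level is part of how they entered the test, and their values are a description. Has1, a hyaluronan synthase, rested on 1 library: it had 0.819, 0 and 0.702 CPM in treated intestine, against 47.2, 1.41 and 1.74 CPM in mesenchyme (log2 -4.80, SE 1.60, edgeR adjusted p = 0.0463). Without mesenchyme library 1 its log2 difference was -1.58 and its edgeR adjusted p 0.12, and without treated library 1, 2 or 3 the p was 0.106, 0.135 and 0.113.

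**Figure D4:**
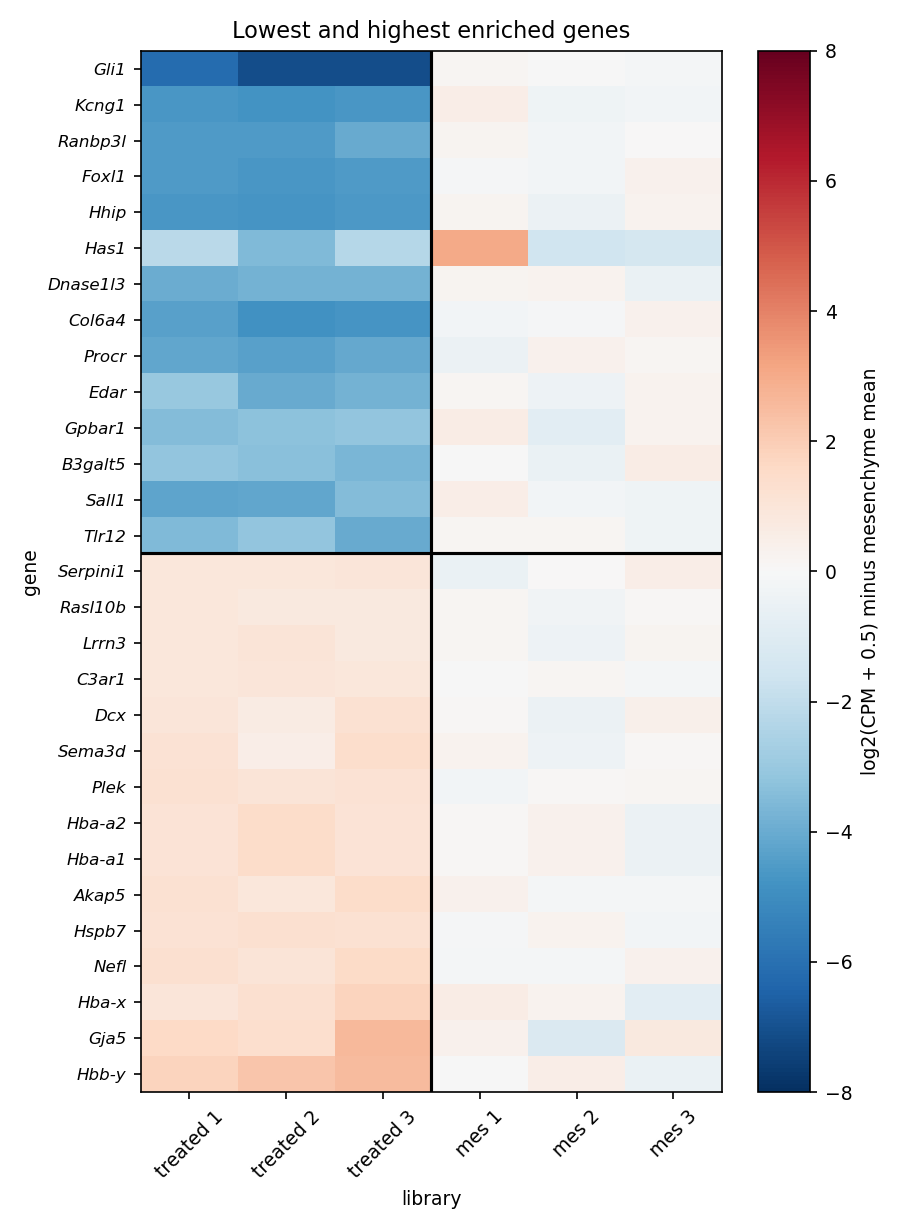
log2(CPM + 0.5) minus the mesenchyme mean of the gene, in each of 3 treated and 3 mesenchyme libraries, for enriched genes among the 15 lowest (top) and 15 highest (bottom) under the naming rule. The falls are larger than the rises, and Has1 is high in mesenchyme library 1 alone.

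Most enriched genes for BMP ligands and antagonists were lower. BMPs are secreted signals that the mesenchyme sends to the epithelium and to itself, and the antagonists bind them outside the cell. The list of ligands also held Bmp1, a protease that matures collagens and frees BMPs from chordin. Of its 15 genes, 11 were tested and 7 of these were mesenchyme-enriched, with 5 lower, 1 higher and a median log2 difference of -1.65; without Bmp1, 4 of 6 were lower. The same counts held against the other enriched genes. Bmp4 had 29.7, 27.9 and 26.8 CPM in treated intestine, against 101, 96.7 and 114 CPM in mesenchyme (log2 -1.89, SE 0.14, edgeR adjusted p = 1.19e-04). Bmp3 had 36.2, 30.9 and 40.0 CPM in treated intestine, against 270.4, 222 and 231 CPM in mesenchyme (log2 -2.75, SE 0.16, edgeR adjusted p = 5.67e-05). Bmp1 stood at log2 -1.65 (SE 0.12), and Bmp5 at -1.17 (SE 0.18). The higher ligand was Gdf6, named after its values were seen, with 12.9, 14.8 and 22.9 CPM in treated intestine, against 9.30, 10.3 and 9.43 CPM in mesenchyme (log2 0.80, SE 0.24, edgeR adjusted p = 0.0313). Its call was lost without treated library 2 (edgeR adjusted p = 0.062) or 3 (0.103, edgeR) and without mesenchyme library 2 (0.0528, edgeR) or 3 (0.109, edgeR).

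Of 20 antagonists and modulators, 18 were tested and 12 were mesenchyme-enriched, with 11 lower, none higher and a median log2 difference of -1.17; 6 were lower and 1 higher against the other enriched genes. Grem1, a BMP antagonist of the tissue below the crypts, had 30.2, 24.0 and 27.6 CPM in treated intestine, against 82.4, 92.9 and 102 CPM in mesenchyme (log2 -1.76, SE 0.16, edgeR adjusted p = 2.23e-04). Chrd, which encodes chordin, had 8.25, 5.92 and 8.58 CPM in treated intestine, against 26.9, 26.5 and 28.2 CPM in mesenchyme (log2 -1.84, SE 0.18, edgeR adjusted p = 3.46e-04). Both groups were tight in each gene. Receptors and effectors held only 3 enriched genes among 17 tested, and all 3 were lower, with Id4, a BMP-induced inhibitor of helix-loop-helix factors, at log2 -1.24 (SE 0.16). That count was 1 without treated library 1 or 2 or mesenchyme library 3.

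PDGF receptors, which mark the fibroblasts and pericytes of the gut wall, were lower, and no PDGF ligand passed the test. Pdgfrb had 143, 126 and 160.1 CPM in treated intestine, against 785, 423 and 540.4 CPM in mesenchyme (log2 -2.02, SE 0.24, edgeR adjusted p = 7.39e-04). Pdgfra, found in the cells under the epithelium, had 355, 326 and 369.7 CPM in treated intestine, against 655, 536 and 796 CPM in mesenchyme (log2 -0.92, SE 0.17, edgeR adjusted p = 0.00534). Pdgfrb was lower on both scales, whereas Pdgfra was not called against the other enriched genes (log2 -0.22). Of the 7 genes tested, these 2 were lower and none was higher.

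Wnt genes gave a mixed picture. Of 17 ligands and R-spondins, 10 were tested and 9 were mesenchyme-enriched, with 4 lower, 1 higher and a median log2 difference of -0.57, near the -0.65 of all enriched genes, of which 42.1% were lower. Wnt4 had 8.19, 6.97 and 7.83 CPM in treated intestine, against 23.4, 16.9 and 25.5 CPM in mesenchyme (log2 -1.51, SE 0.20, edgeR adjusted p = 0.0012) and was the only one also lower against the other enriched genes. The R-spondins Rspo3 and Rspo2, which amplify Wnt signals, differed in direction. Rspo3 had 37.0, 46.0 and 31.3 CPM in treated intestine, against 59.7, 51.6 and 69.2 CPM in mesenchyme (log2 -0.66, SE 0.19, edgeR adjusted p = 0.0268), and stood at 0.04 against the other enriched genes. Rspo2, named after its values were seen, had 19.7, 21.5 and 24.0 CPM in treated intestine, against 8.66, 15.9 and 13.1 CPM in mesenchyme (log2 0.74, SE 0.22, edgeR adjusted p = 0.0282). The call of Rspo2 was lost without treated library 1, 2 or 3 (edgeR adjusted p = 0.0664, 0.0828 and 0.0986) or mesenchyme library 3 (0.0917, edgeR), and that of Rspo3 without treated library 1 or 3 (edgeR adjusted p = 0.105 and 0.1) or mesenchyme library 3 (0.0718, edgeR). Without treated library 3, 2 Wnt genes were lower. Of 12 secreted Wnt inhibitors, 9 were tested and 6 were mesenchyme-enriched, of which 2 were lower and none higher. Dkk1, called lower, had 0, 1 and 0 counts in treated intestine, against 5, 56 and 28 counts in mesenchyme, and it was tested only because the mesenchyme libraries passed the filter on low counts. Dkk3, named after its values were seen, stood at log2 -1.04 (SE 0.17), and Sfrp1 did not pass, with 726, 715 and 936 CPM in treated intestine, against 827, 868 and 824 CPM in mesenchyme.

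Extracellular matrix genes were lower almost throughout. All 15 listed interstitial collagens were mesenchyme-enriched and tested, with 14 lower, none higher and a median log2 difference of -1.84, and 10 were lower against the other enriched genes. Collagen VI chains, which form beaded filaments around cells, stood out by size beside Col6a4. Col6a1 had 535, 461 and 506 CPM in treated intestine, against 2260, 2597 and 2719 CPM in mesenchyme (log2 -2.33, SE 0.17, edgeR adjusted p = 1.14e-04). Col6a2 had 407, 378 and 407 CPM in treated intestine, against 2092, 2419 and 2624 CPM in mesenchyme (log2 -2.58, SE 0.17, edgeR adjusted p = 8.01e-05). In both, the highest treated value was far below the lowest mesenchyme value. Col5a1, of the fibrils of collagen V, stood at log2 -1.84 (SE 0.15). Col14a1 was the gene that did not pass (log2 -0.65, edgeR adjusted p = 0.0506), and without mesenchyme library 1 it passed (log2 -0.82, edgeR adjusted p = 0.00512). It also passed with RLE scaling (edgeR adjusted p = 0.042), a minimum count of 50 (0.0434, edgeR) and DESeq2 (adjusted p = 0.0163).

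Of 19 basement membrane genes tested, 17 were lower and 2 higher, and all 10 mesenchyme-enriched ones were lower (median log2 -1.47), 6 of them also against the other enriched genes. Col4a1 and Col4a2, the chains of collagen IV in nearly every basement membrane, share a promoter region. Col4a1 had 523, 451 and 512 CPM in treated intestine, against 1790, 2239 and 2241 CPM in mesenchyme (log2 -2.08, SE 0.17, edgeR adjusted p = 1.74e-04), and Col4a2 had 268, 232 and 279 CPM in treated intestine, against 1149, 1177 and 1228 CPM in mesenchyme (log2 -2.19, SE 0.15, edgeR adjusted p = 8.56e-05). Lama4, a laminin chain of vessels and muscle, had 137, 112 and 139.9 CPM in treated intestine, against 383, 404 and 482 CPM in mesenchyme (log2 -1.71, SE 0.16, edgeR adjusted p = 2.52e-04). The treated values of each of these genes formed a narrow band below the mesenchyme values.

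Smooth muscle genes differed little as a group. All 20 were tested, 16 were mesenchyme-enriched, and of these 5 were lower and 2 higher with a median log2 difference of -0.40, above the -0.65 of all enriched genes, of which 42.1% were lower. Acta2, smooth muscle actin, had 718, 803 and 632 CPM in treated intestine, against 737, 1119 and 1242 CPM in mesenchyme (log2 -0.53, SE 0.22, edgeR adjusted p = 0.0924). Myh11, the smooth muscle myosin heavy chain, had 977, 908 and 873 CPM in treated intestine, against 871, 1349 and 1281 CPM in mesenchyme (log2 -0.34, SE 0.20, edgeR adjusted p = 0.198). The ranges overlapped in both, with mesenchyme library 1 the lowest of its group. Without that library both were lower, Acta2 at log2 -0.71 (edgeR adjusted p = 0.00266) and Myh11 at -0.51 (edgeR adjusted p = 0.00502), and 9 muscle genes were lower. Acta2 was also lower by DESeq2 (adjusted p = 0.0391). On the enriched-gene scale Acta2 stood at 0.15 and Myh11 at 0.33, neither of them called. Smtn, which encodes smoothelin of contractile muscle, had 69.1, 64.9 and 67.6 CPM in treated intestine, against 207, 188 and 161 CPM in mesenchyme (log2 -1.46, SE 0.14, edgeR adjusted p = 2.70e-04) and was the only muscle gene lower on both scales, while Synpo2 stood at log2 -1.05 (SE 0.22). The 2 higher genes were Hspb7, a small heat shock protein of muscle, with 17.9, 19.8 and 19.1 CPM in treated intestine, against 7.38, 9.45 and 6.71 CPM in mesenchyme (log2 1.26, SE 0.18, edgeR adjusted p = 0.00174), and Des, which encodes desmin and was named after its values were seen (log2 0.59, edgeR adjusted p = 0.0453). Without any one treated library or mesenchyme library 3 the counts were 2 lower and 1 higher, and without mesenchyme library 1 the higher count was also 1, the call of Des being lost (edgeR adjusted p from 0.0539 to 0.161).

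Interstitial cells of Cajal, the pacemaker cells of gut muscle, were represented by 7 genes, all tested, of which 4 were lower, 1 was higher and 2 did not pass. Of the 3 mesenchyme-enriched ones, 2 were lower and none was higher. Ano1, their chloride channel, had 20.2, 16.1 and 22.7 CPM in treated intestine, against 123, 85.3 and 117 CPM in mesenchyme (log2 -2.46, SE 0.21, edgeR adjusted p = 1.80e-04). Prkcq, a protein kinase C of these cells, had 2.96, 2.72 and 3.56 CPM in treated intestine, against 12.5, 10.8 and 15.03 CPM in mesenchyme (log2 -2.05, SE 0.23, edgeR adjusted p = 5.62e-04). Both were lower on both scales. Kit, their receptor kinase, is not mesenchyme-enriched by the 8-fold rule and stood at log2 -0.71 (SE 0.18), and its edgeR adjusted p was 0.0713 without treated library 1 and 0.0781 without treated library 2.

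Pericyte and endothelial genes were lower in most cases. Of 9 pericyte genes, 8 were tested and 6 were mesenchyme-enriched, with 5 lower, none higher and a median log2 difference of -1.26; without mesenchyme library 3, 1 was higher. Cspg4, the NG2 proteoglycan, had 46.7, 37.3 and 44.6 CPM in treated intestine, against 439.8, 124 and 165 CPM in mesenchyme (log2 -2.49, SE 0.45, edgeR adjusted p = 0.0044), and Abcc9, a subunit of a potassium channel of pericytes, stood at log2 -1.63 (SE 0.25). Mesenchyme library 1 was far above the other 2 in Cspg4. Of 20 endothelial genes, all tested, 17 were mesenchyme-enriched, with 13 lower, none higher and a median of -1.01, and 5 were lower against the other enriched genes. Plvap, of the diaphragms of fenestrated vessels, had 6.93, 5.57 and 7.50 CPM in treated intestine, against 43.9, 47.1 and 25.1 CPM in mesenchyme (log2 -2.52, SE 0.27, edgeR adjusted p = 4.79e-04). Eng, a TGF-beta coreceptor of vessels, had 30.7, 30.0 and 28.6 CPM in treated intestine, against 207, 126 and 124 CPM in mesenchyme (log2 -2.35, SE 0.22, edgeR adjusted p = 2.96e-04). Robo4, an endothelial guidance receptor, had 23.3, 23.0 and 22.5 CPM in treated intestine, against 72.2, 81.3 and 60.6 CPM in mesenchyme (log2 -1.64, SE 0.15, edgeR adjusted p = 2.70e-04). The defining junction gene Pecam1 had 101, 91.0 and 119 CPM in treated intestine, against 117, 149 and 171 CPM in mesenchyme (log2 -0.49, SE 0.18, edgeR adjusted p = 0.0579), with overlapping ranges, and was lower without mesenchyme library 1 (log2 -0.61, edgeR adjusted p = 0.00871), with RLE scaling (0.0466, edgeR) and by DESeq2 (adjusted p = 0.0258). The mesenchyme-enriched endothelial genes of the list thus ranged from no call to falls of more than 4-fold. Of all 20, 13 were lower, 1 that is not mesenchyme-enriched was higher and 6 did not pass. Gja5, an arterial gene outside the list that is described below, was higher as well (log2 1.83).

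Neural genes showed smaller falls or none. Enteric neurons and glia come from neural crest cells that enter the gut and stay in its mesenchyme. Of 15 neural crest genes, all tested, 13 were mesenchyme-enriched, with 5 lower, none higher and a median log2 difference of -0.33. Among all enriched genes 42.1% were lower and the median was -0.65. Ednrb, the endothelin receptor of migrating crest cells, had 260.2, 212 and 309.5 CPM in treated intestine, against 454, 628 and 650.2 CPM in mesenchyme (log2 -1.15, SE 0.20, edgeR adjusted p = 0.00388), and Sox10, the crest and glia factor, stood at log2 -0.82 (SE 0.19). No neural crest gene was lower against the other enriched genes, and 4 were higher. Without mesenchyme library 1, 2 were higher with all-gene scaling as well. The count of lower genes was 2 without treated library 1 or 3 and 1 without treated library 2, where Sox10 was among those lost (edgeR adjusted p = 0.0506 without treated library 1 and 0.055 without treated library 2).

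Of 17 enteric neuron genes, all tested, 15 were mesenchyme-enriched, with none lower, 3 higher and a median log2 difference of 0.33; against the other enriched genes 12 were higher. Nefl, the light neurofilament chain, had 30.4, 25.2 and 35.6 CPM in treated intestine, against 10.9, 10.9 and 15.5 CPM in mesenchyme (log2 1.27, SE 0.21, edgeR adjusted p = 0.00297). Tubb3, a neuronal tubulin, had 210.0, 212 and 205 CPM in treated intestine, against 124, 117 and 160.1 CPM in mesenchyme (log2 0.64, SE 0.15, edgeR adjusted p = 0.0121), and Gap43, of growing axons, had 82.0, 81.6 and 74.8 CPM in treated intestine, against 32.1, 49.2 and 57.3 CPM in mesenchyme (log2 0.76, SE 0.21, edgeR adjusted p = 0.0231). The treated values of Nefl, Tubb3 and Gap43 were all above the mesenchyme values. These genes were picked by such a gap or by adjusted p, and the groups did not overlap for 55.6% of all enriched genes, so this is a description. Without treated library 1 or 2 only 1 neuron gene was higher, since Tubb3 (edgeR adjusted p = 0.0567 and 0.0521) and Gap43 (edgeR adjusted p = 0.0831 and 0.079) were lost, and Gap43 was lost without treated library 3 as well (edgeR adjusted p = 0.0584). Without mesenchyme library 3, 6 were higher, and without mesenchyme library 1, 1 was lower.

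Leukocyte genes were lower about as often as enriched genes in general, and most erythroid genes were higher. Of 17 leukocyte genes, all tested, 13 were mesenchyme-enriched, with 6 lower, 1 higher and a median log2 difference of -0.94, beside 42.1% lower among all enriched genes; against the other enriched genes 1 was lower and 2 were higher. Csf1r, the growth factor receptor of macrophages, had 34.6, 29.7 and 33.5 CPM in treated intestine, against 86.0, 109 and 98.3 CPM in mesenchyme (log2 -1.59, SE 0.15, edgeR adjusted p = 2.99e-04) and was the only one lower on both scales. Ptprc, the CD45 antigen of all leukocytes, had 9.45, 7.45 and 6.21 CPM in treated intestine, against 9.30, 29.0 and 23.5 CPM in mesenchyme (log2 -1.48, SE 0.36, edgeR adjusted p = 0.0153), and mesenchyme library 1 was as low as the treated ones. Without treated library 2 or 3 or mesenchyme library 3 its edgeR adjusted p was 0.0654, 0.0655 and 0.0523. The count of lower genes was 3 without treated library 1 or 2 and 2 without treated library 3, and none was higher without any one treated library or mesenchyme library 2. Of 14 erythroid genes, 11 were tested and 8 were mesenchyme-enriched, with 6 higher and 1 lower. Hbb-y, an embryonic beta globin, had 156, 206 and 258 CPM in treated intestine, against 44.3, 64.8 and 30.5 CPM in mesenchyme (log2 2.15, SE 0.30, edgeR adjusted p = 0.0016). The alpha globins Hba-a1 and Hba-a2 are near-identical copies whose reads cannot be assigned with certainty, and both stood at log2 1.20 (SE 0.22). Without treated library 2 or mesenchyme library 3 the count of higher erythroid genes was 3. Globin transcripts come from red cells in the vessels, and how much blood each library held was not measured apart from these genes.

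**Figure D5:**
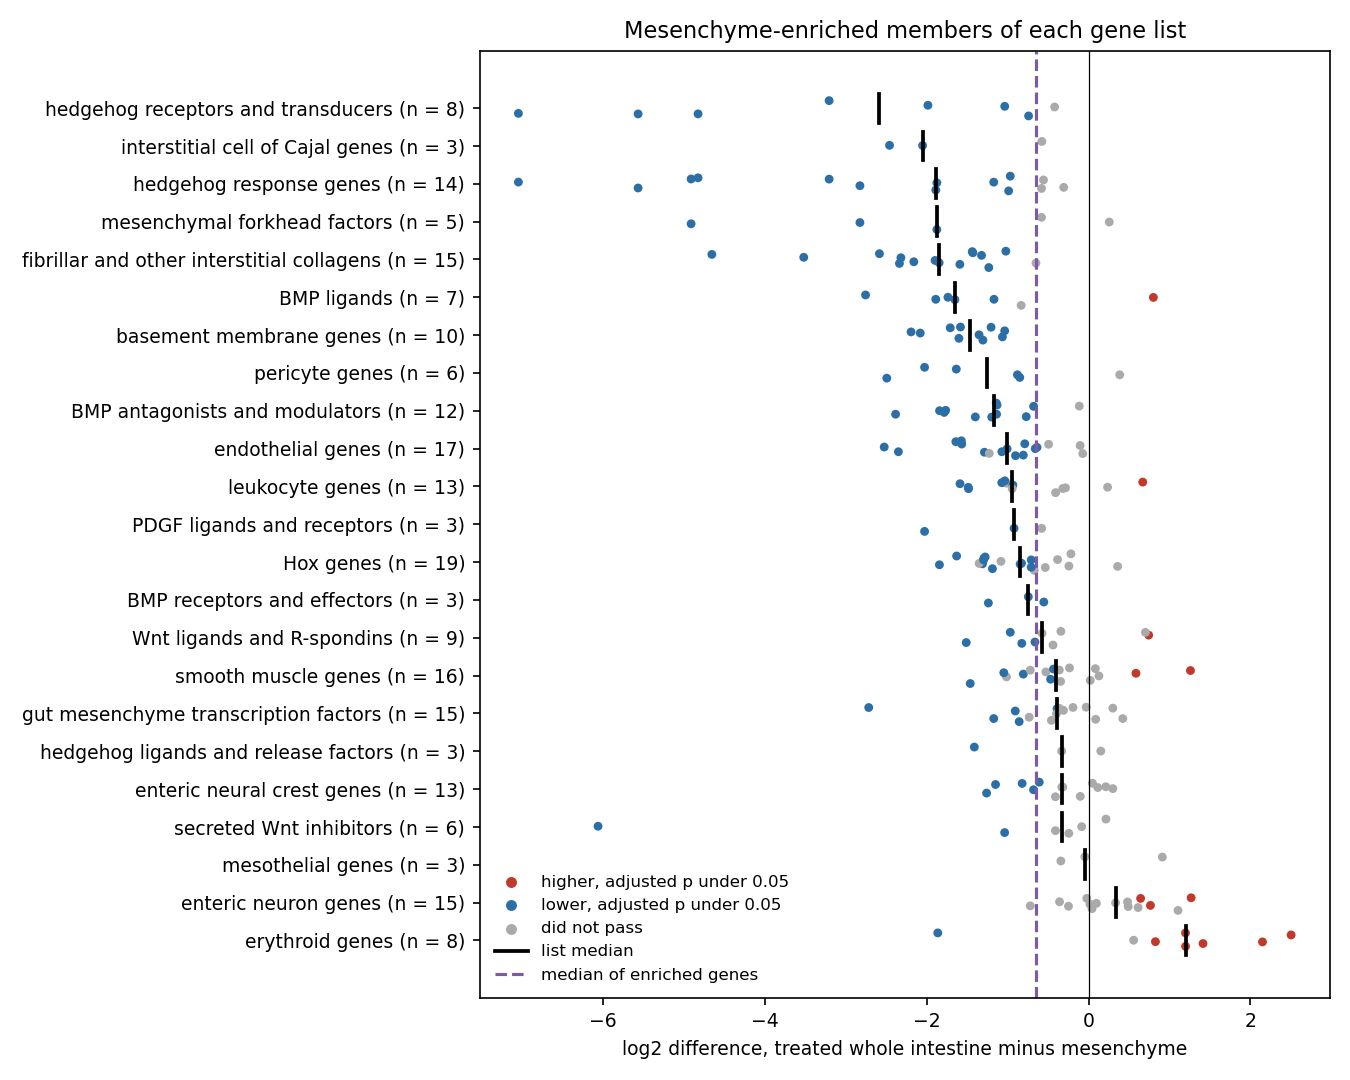
log2 difference (treated whole intestine minus mesenchyme, x axis) of each mesenchyme-enriched, tested member of the gene lists with at least 3 such members (y axis, n in brackets), with list medians as black bars and the median of all enriched genes, -0.65, dashed. The lists of hedgehog receptors and transducers and of response genes lie at the low end, neuron and erythroid lists at the high end, and the smooth muscle median between the dashed line and 0. Lists can share genes.

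Transcription factors of gut mesenchyme other than the forkhead genes mostly did not pass the test. The same held for 1319 of the 2385 enriched genes, of which 42.1% were lower. Of 22 listed, 18 were tested and 15 were mesenchyme-enriched, with 5 lower, none higher and a median log2 difference of -0.39; against the other enriched genes 1 was lower and 5 were higher. Snai1, a zinc finger repressor of epithelial genes, had 6.61, 4.18 and 4.26 CPM in treated intestine, against 53.6, 24.6 and 24.1 CPM in mesenchyme (log2 -2.71, SE 0.37, edgeR adjusted p = 0.00132) and was the one lower on both scales. The zinc finger factors Zeb1 and Zeb2 stood at log2 -0.86 (SE 0.19) and -0.90 (SE 0.19). The count of lower genes was 3 without treated library 1, where Zeb1 had an edgeR adjusted p of 0.0512, and 1 was higher without mesenchyme library 1. Hox genes, which set position along the gut, were lower in 11 of 19 mesenchyme-enriched genes among 25 tested, with a median of -0.84 and none higher, and 4 were lower against the other enriched genes. Hoxb4 had 30.1, 28.9 and 30.3 CPM in treated intestine, against 83.1, 74.5 and 62.3 CPM in mesenchyme (log2 -1.29, SE 0.15, edgeR adjusted p = 6.81e-04). Hoxc5 had 16.2, 17.0 and 20.5 CPM in treated intestine, against 54.2, 36.0 and 41.4 CPM in mesenchyme (log2 -1.28, SE 0.19, edgeR adjusted p = 0.002), and Hoxb8 stood at log2 -1.63 (SE 0.29). Mesenchyme library 1 was the highest of its group in each of these.

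The genes that were higher in treated intestine despite belonging to the mesenchyme were few and differed less. The count of 63 was 22 without treated library 1, 29 without treated library 2 and 25 without treated library 3, and 58 to 93 without 1 mesenchyme library. Among the 15 highest under the naming rule, 4 were globins and several are known from neurons. Dcx, which encodes doublecortin of young neurons, had 53.0, 41.4 and 62.1 CPM in treated intestine, against 27.9, 18.8 and 34.4 CPM in mesenchyme (log2 0.95, SE 0.25, edgeR adjusted p = 0.0203). Lrrn3, a neuronal leucine-rich repeat protein, stood at log2 0.91 (SE 0.20), and Serpini1, which encodes neuroserpin, at 0.87 (SE 0.25). Rasl10b, a small GTPase, stood at 0.87 (SE 0.17) and Sema3d, a secreted guidance ligand, at 1.10 (SE 0.28). Akap5, a kinase anchoring protein, had 37.0, 28.8 and 42.5 CPM in treated intestine, against 19.6, 13.6 and 13.5 CPM in mesenchyme (log2 1.25, SE 0.22, edgeR adjusted p = 0.00349). Plek, which encodes pleckstrin of platelets and leukocytes, stood at log2 1.16 (SE 0.17), and C3ar1, the receptor for complement C3a, at 0.94 (SE 0.15). Gja5, which encodes connexin 40 of arteries, had 17.8, 14.98 and 35.7 CPM in treated intestine, against 7.06, 2.27 and 10.1 CPM in mesenchyme (log2 1.83, SE 0.55, edgeR adjusted p = 0.0323).

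Of these 15 calls, 5 were lost without at least 1 of the libraries. Without treated library 1, 2 or 3 the edgeR adjusted p of Gja5 was 0.0595, 0.0514 and 0.113, and that of Serpini1 was 0.0794, 0.0798 and 0.0802. Serpini1 also missed the threshold without mesenchyme library 2 (edgeR adjusted p = 0.0564). Sema3d was lost without treated library 1 (edgeR adjusted p = 0.0631), treated library 3 (0.0689, edgeR) or mesenchyme library 3 (0.0566, edgeR). Dcx was lost without treated library 1 (edgeR adjusted p = 0.0657) or 3 (0.0756, edgeR). The embryonic globin Hba-x (log2 1.41, SE 0.40) was lost without treated library 2 (edgeR adjusted p = 0.0681), treated library 3 (0.0974, edgeR) or mesenchyme library 3 (0.058, edgeR). The other 10, among them Hbb-y, Nefl, Hspb7, Akap5 and Plek, passed without any one library.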

How the data were processed

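RNA-seq counts of 6 libraries were compared. TopHat2 2.0.13, DESeq (no version) and genome build mm9 are named in the submitters' processing notes; how reads were counted, with which annotation and whether by strand, is not given in the sources used here. The values the authors deposited are raw read counts per gene for 24016 identifiers, the only values of theirs used. Genes that overlap, have an antisense partner or a close copy are therefore uncertain. Of 27 symbols turned into dates by a spreadsheet, 27 were named by accession, and 23719 identifiers matched the RefSeq gene table.

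Counts without Rn45s, Lars2 and Mir6236 were tested with edgeR 4.0.16 in R 4.3.3 (filterByExpr, minimum count 10; TMM; quasi-likelihood F test, two-sided; Benjamini-Hochberg over all 15372 genes, threshold 0.05). The filter corresponds to 0.598 CPM in 3 libraries. Of the 2385 enriched genes tested, 2070 reached it in all 6 libraries, 180 through mesenchyme alone (102 of them lower) and 69 through treated intestine alone. CPM uses TMM-scaled library sizes; the 8-fold rule and the levels set beside epithelium use plain totals. The SE is the size of the log2 difference over the square root of F. The test was also run on simulated counts in which a small set of genes was changed, equally up and down. Those counts held no shift of a whole layer, so that run cannot speak to the choice of scaling. Replicates differed by more than sampling noise (chi-square per degree of freedom 9.46 to 60).

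Named genes are the 2 hedgehog lists, the 15 lowest and 15 highest enriched genes that passed the test without overlap of the groups at 10 CPM or more in the higher group, up to 4 called members and 2 uncalled ones per list, and 6 genes outside both layers; exceptions are marked. Not every gene the rule takes is described, and some are not reported here. The genes and the 29 lists were chosen with earlier results of these data known. Same-numbered libraries correlated by 0.286, 0.304 and 0.0775 in their deviations and no label ties them, so no block was used. Alternatives changed scaling, test (DESeq2 1.42.0), threshold, filter, compartment rule, covariates and libraries. With 3 libraries a group, and 3284702 counts in mesenchyme library 1, small differences and low genes are imprecise.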

Additional observations from a re-analysis of the deposited data

How the results depend on the processing

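Gli1, Ptch1, Hhip and Foxl1 were lower under every alternative run. Scaling over the enriched genes moved the median log2 difference of all genes to 0.69 and of enriched genes from -0.65 to 0.033, and left 423 enriched genes lower and 399 higher, and 697 lower and 8108 higher over all genes; the share of lower among called enriched genes was 51.5%, against 94.1% with all-gene scaling. By construction this scale sets the enriched genes near 0. On it the sign turned for Acta2 (0.15), Cdon (0.40), Col14a1 (0.026), Gli3 (0.31), Myh11 (0.33), Pecam1 (0.18), Rspo3 (0.044), Sfrp1 (0.60) and Smo (0.61). A test against a 2-fold change kept 238 enriched genes lower and 2 higher, and 336 lower and 744 higher over all genes. A fit of all 9 libraries called 40 enriched genes higher, no filter on low counts gave a median of -0.84, a 4-fold compartment rule gave 96 higher, and a 16-fold rule 604 lower and 27 higher. The cause was not tested in these cases. Without 1 library, 685 to 1094 enriched genes were lower and 22 to 93 higher, 1603 to 3647 were lower and 1883 to 3875 higher over all genes, and the median ran from -0.72 to -0.56; all-gene counts were lowest without treated library 1 (1603 lower, 1883 higher), 2 (1698 and 1907) or 3 (1807 and 2135). Choosing the enriched genes with 1 mesenchyme library and testing without it gave 782 to 1064 lower, 60 to 94 higher and medians of -0.65 to -0.54, the last with mesenchyme library 1 as the chooser. With a replicate block 1011 enriched genes were lower and 65 higher, Col14a1 and Pecam1 passed (edgeR adjusted p = 0.0299 and 0.0385) and Stk36 did not (0.0576, edgeR); all libraries correlated best with their own number, a hint from the data and not from the design, and no label pairs them. Other scalings, DESeq2, filters and covariates gave 896 to 1101 lower and 45 to 82 higher. Counting only genes at the filter level in all 6 libraries, chosen after seeing the data, gave 901 lower (43.5%) and 57 higher (2.75%) with a median of -0.64.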

Other observations

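Outside the mesenchyme-enriched genes, epithelial genes were higher in treated intestine, which contains epithelium. All 24 epithelial markers tested were higher, with a median log2 difference of 3.35; Epcam, an adhesion molecule, had 565, 641 and 517 CPM in treated intestine, against 24.1, 23.8 and 25.8 CPM in mesenchyme (log2 4.54, SE 0.16, edgeR adjusted p = 2.11e-05), and Cdh1, which encodes E-cadherin, stood at log2 3.82 (SE 0.20). Of 18 endoderm transcription factors tested, 14 were higher and none was lower, with a median of 3.28 (1 was lower without mesenchyme library 2), and Gata4 had 75.9, 80.6 and 92.1 CPM in treated intestine, against 2.89, 5.10 and 2.64 CPM in mesenchyme (log2 4.49, SE 0.28, edgeR adjusted p = 6.36e-05). Sfrp5, a secreted Wnt inhibitor that is not mesenchyme-enriched, had 28.0, 23.5 and 18.9 CPM in treated intestine, against 0.642, 0.910 and 0.552 CPM in mesenchyme (log2 5.03, SE 0.29, edgeR adjusted p = 5.67e-05).

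Genes of cholesterol synthesis and uptake were higher in treated intestine for 19 of 23 tested, with none lower and a median log2 difference of 1.15. Over all genes tested, 20.1% were higher and 19.1% lower. Idi1, an isomerase of the mevalonate pathway, had 235, 296 and 245 CPM in treated intestine, against 34.6, 46.4 and 75.1 CPM in mesenchyme (log2 2.29, SE 0.27, edgeR adjusted p = 7.76e-04). Msmo1, a sterol oxidase, had 385, 501 and 380.3 CPM in treated intestine, against 95.9, 122 and 151 CPM in mesenchyme (log2 1.77, SE 0.20, edgeR adjusted p = 6.34e-04). Without 1 library the count was 15 to 20. Idi1 and Msmo1 were among the 6 highest genes of those neither 8-fold higher in mesenchyme nor 2-fold higher in epithelium, a group that also held Cemip (log2 2.37, SE 0.22), Senp8 (1.98, SE 0.19), Prss23 (1.78, SE 0.21) and the microRNA gene Mir675 (1.82, SE 0.17), which lies within H19 so that its reads are uncertain. All 6 had every treated value above every value of both separated layers on plain CPM. No overlap with mesenchyme and the limit on the epithelium level were conditions of picking them, so this is a description. Idi1 had 242, 300.4 and 252 in treated intestine, against 64.6, 82.2 and 84.5 in epithelium and 32.9, 46.9 and 72.4 in mesenchyme. Cemip had 21.2, 14.7 and 20.3 in treated intestine, against 0.617, 0.825 and 0.251 in epithelium and 2.74, 3.62 and 3.65 in mesenchyme. Drug, tissue content and any difference in culture cannot be told apart in these genes.

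All lists in this paragraph are to be read beside the same shares over all genes tested, 20.1% higher and 19.1% lower. Cell cycle genes were higher for 10 of 27 tested and lower for 1 (E2f1, named after its values were seen), with a median log2 difference of 0.39; the higher count was 4 without treated library 1 and 5 without treated library 2, and the lower count was 0 without any one treated library or mesenchyme library 2 and 3 without mesenchyme library 1. Ccnb1, a mitotic cyclin, stood at log2 1.30 (SE 0.14). Hypoxia and glycolysis genes gave 4 higher and 2 lower of 14, with Vegfa at log2 -1.63 (SE 0.20) and the glycolytic enzyme Pgk1 at 1.40 (SE 0.21); the higher count was 2 without treated library 2, and the lower count was 1 without any one treated library or mesenchyme library 3 and 5 without mesenchyme library 2. Immediate early and heat shock genes gave 5 higher and 3 lower of 20, with the chaperone Hsp90aa1 at log2 1.38 (SE 0.18); without any one treated library or mesenchyme library 3 the higher count was 2 or 3 and the lower count 1. Mesothelial genes gave 4 higher and none lower of 9, and the 3 mesenchyme-enriched ones did not pass.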
